A study of Homo sapiens with 6 samples.

Results

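The TGF-beta receptors and SMADs described here are 10 of the 47577 loci in the expression table, chosen by gene symbol and not by any measured value: the ligands TGFB1 and TGFB2, the receptors TGFBR1 and TGFBR2, the signal carriers SMAD2, SMAD3 and SMAD4, and the inhibitors SMAD6, SMAD7 and SKIL. All 10 were found under their own symbol and passed the filter on low values. Expression was measured in OVCAR3, an established line from a high-grade serous ovarian carcinoma, in 3 cultures exposed to the solvent DMSO and 3 exposed to THZ531, a covalent inhibitor of the transcription kinases CDK12 and CDK13, at 200 nM, with 6 h of exposure in both groups. The titles of the libraries and the design text name THZ531, while 1 protocol field gives THZ1, a related inhibitor, with an equal dose, and the libraries were taken as THZ531. Both groups are the same untransfected line, so the data describe 1 cell line at 1 dose and 1 time.

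TGF-beta ligands bind the type II receptor TGFBR2, which then phosphorylates and activates the type I receptor TGFBR1. The activated receptor phosphorylates SMAD2 and SMAD3, which join SMAD4, enter the nucleus and change the transcription of target genes. SMAD6 and SMAD7 are inhibitory SMADs that block receptors or SMAD complexes, and SKIL is a nuclear repressor bound by SMADs. Genes of these inhibitors are themselves known targets of TGF-beta or BMP signalling, and the pathway is known in carcinoma cells for growth arrest and for the epithelial to mesenchymal transition.

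The inhibitory SMADs moved in opposite directions. SMAD7 rose and SMAD6 fell in all 3 treated cultures, each by more than 2-fold on average, while TGFB2 and TGFBR1 rose by less, TGFB1, TGFBR2 and SKIL stayed under the fold threshold, and the receptor-regulated SMAD2 and SMAD3 and the common SMAD4 had the smallest log2 fold changes with the deposited scaling. The inhibitory SMADs had the largest log2 fold changes of the 10 members, so the sequences in front of SMAD6 and SMAD7 are shown first. The first and the second stretch hold the palindromic SMAD box, a known binding site of SMAD proteins, and the third does not. The first is the stretch of 250 bases directly upstream of the start of SMAD6 (GRCh38.p14, chr15:66701986-66702235, plus strand), and the second is 60 bases around a box located 1260 bases upstream of the start of SMAD7 (hg38, chr18:48952192-48952251, minus strand). The third is the stretch of 250 bases directly upstream of SMAD7 (GRCh38.p14, chr18:48950966-48951215, minus strand). All are written 5′ to 3′ along the gene, with the SMAD box GTCTAGAC or the shorter SMAD motif CAGAC in capitals.
SMAD6 promoter: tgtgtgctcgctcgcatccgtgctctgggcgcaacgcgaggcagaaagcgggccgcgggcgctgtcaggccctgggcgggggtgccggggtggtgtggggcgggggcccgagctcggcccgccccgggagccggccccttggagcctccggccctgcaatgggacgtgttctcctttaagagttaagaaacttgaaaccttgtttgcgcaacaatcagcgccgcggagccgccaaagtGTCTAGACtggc
SMAD7 box: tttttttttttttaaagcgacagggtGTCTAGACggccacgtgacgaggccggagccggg
SMAD7 promoter: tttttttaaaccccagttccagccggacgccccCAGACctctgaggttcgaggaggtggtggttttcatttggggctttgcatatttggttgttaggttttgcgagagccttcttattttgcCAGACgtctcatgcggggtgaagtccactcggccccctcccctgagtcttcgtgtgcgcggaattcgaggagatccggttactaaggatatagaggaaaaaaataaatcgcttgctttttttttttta

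The SMAD6 box began 12 bases upstream of the gene's start. GTCTAGAC, which reads the same on both strands, was found in 71 of 35116 RefSeq promoter windows (0.202%). These windows, unlike the stretches printed directly upstream of SMAD6 and SMAD7, also reach past the start. Shares of these windows are thus not rates for stretches of the printed length. RefSeq gives several windows for some members, such as 3 for SMAD7 and 8 for TGFBR1. Only the window nearest the start of the main transcript was read for each member, while the shares count all windows. Within 2000 bases on either side of the start of the main transcript, GTCTAGAC was found for 288 of 13383 expressed genes (2.15%). Among the members it was found for SMAD6 and SMAD7. Genes with and without a box in that range were called as follows: 14.2% of those with a box were higher and 25.3% lower, against 12.8% and 22.9% of those without. The short motif, CAGAC or GTCTG on the other strand, stood at 217 and 128 bases upstream of SMAD7 and was absent from the SMAD6 window. It is a frequent word, present in 45.3% of the RefSeq windows. It was also found upstream of TGFB2 (243 and 53 bases), TGFBR1 and SKIL, and 6 bases downstream of the start of SMAD3. Another SMAD motif that was searched, GGCGCC, was absent from the SMAD6 and SMAD7 windows. It was found upstream of SMAD2, SMAD3, SMAD4 and SKIL, and in 19.2% of the RefSeq windows. A match is a run of letters and not a measured binding site.

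The polyA plus libraries held 53054048 to 70986130 reads counted on genes. The values given below are normalised read counts, which are reads divided by a size factor of the library, without correction for gene length. They were compared with limma on the log2(value + 1) scale over 17568 loci that reached 10 in at least 3 libraries. A gene is called higher or lower when the fold change is at least 1.5 and the unadjusted p at most 0.05, and adjusted p-values are those of limma after the Benjamini-Hochberg method over all loci tested. The libraries of a group are stated to be biological repeats, so these p-values measure the spread between cultures of 1 line. Of the members, 3 were higher and 1 was lower in THZ531, next to 15.7% and 23.9% of all loci tested. Without the fold threshold, 6 members were higher and 2 lower at an adjusted p of 0.05 (all loci: 34.6% and 34.1%). At a fold change of 2, 1 member was higher, SMAD7, and 1 lower, SMAD6 (all loci: 7.7% and 15.3%). The groups did not overlap for 9 of the 10 members, but this also held for 71.7% of all loci. The median log2 fold change was 0.37 for the members and -0.01 for all loci.

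The deposited scaling bears on these directions. Scaling every library to the same total lowered the log2 fold change of all loci by a median of 0.24, and scaling to RPL34, a ribosomal protein transcript that served as the reference of the study's qPCR, lowered it by 0.49. RPL34 itself ranged from 11905 to 14248 normalised reads in DMSO and from 18164 to 18337 in THZ531. The median of the members became 0.13 with the same total (all loci: -0.25) and -0.12 with RPL34 (all loci: -0.50). The similar margin over all loci follows by construction, since rescaling a library shifts every gene by a similar amount. In RNA from a whole culture, fewer cells and less RNA per cell cannot be told apart, and none of the scalings measures RNA per cell.

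**Figure D1:**
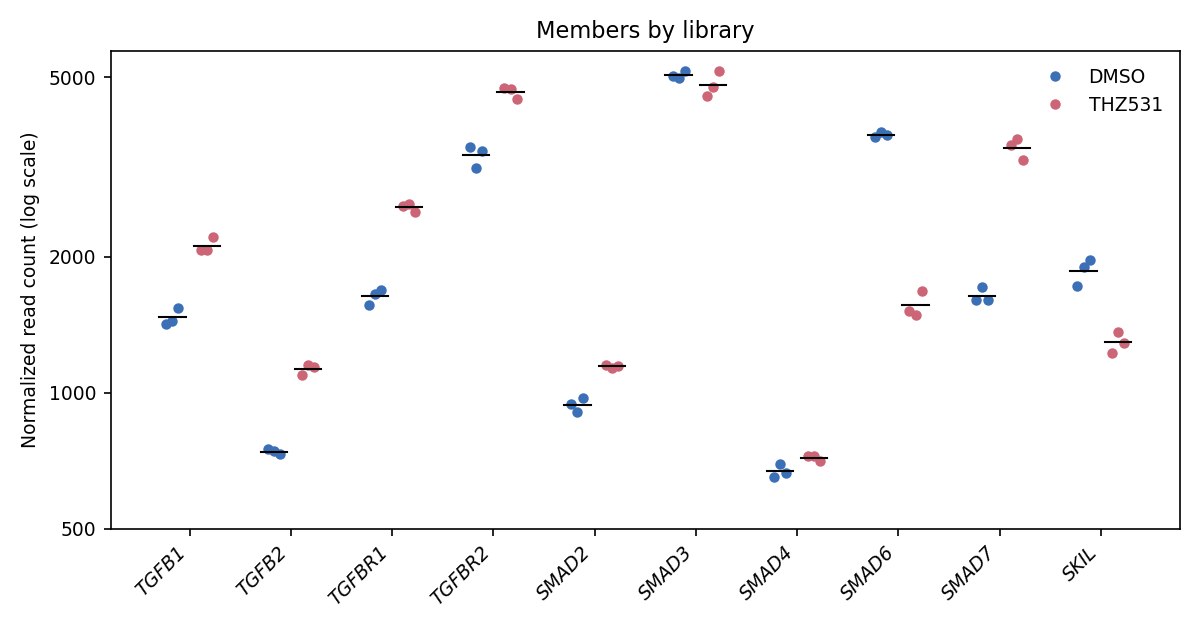
Normalised read counts of the 10 members (log axis) in each of the 3 DMSO and 3 THZ531 libraries, with points for single libraries and bars for group means. The groups stand apart for SMAD6, which is lower in THZ531, and SMAD7, which is higher, whereas those of SMAD3 overlap.

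Both ligands stood higher in the treated cultures. TGFB1, the most studied ligand of the family (hg38, chr19:41330323-41353922, minus strand), had 1422, 1439 and 1541 normalised reads in the DMSO libraries and 2068, 2067 and 2212 in the THZ531 libraries. All treated values lay above all control values. Its mean went from 1467 ± 64.2 to 2115 ± 83.3 (SD, n = 3 per group), or by 0.53 as a log2 fold change (SE 0.057, adjusted p = 5.0e-07, limma). At 1.44-fold this stayed under the fold threshold, so TGFB1 was not called. TGFB2, a second ligand that needs the co-receptor TGFBR3 for efficient binding (chr1:218345336-218444619, plus strand), had 749, 741 and 730 normalised reads in DMSO and 1097, 1150 and 1142 in THZ531. The groups were separate, and the mean rose from 740 ± 9.36 to 1130 ± 28.7 (SD, n = 3), 1.53-fold (log2 0.61, SE 0.067, adjusted p = 5.8e-07, limma). TGFB2 was thus called higher, narrowly. Its log2 fold change was 0.37 when scaled to the same total and 0.12 when scaled to RPL34, and TGFB2 was then no longer called, while TGFB1 went to 0.28 and 0.03. The ratio of TGFB1 to TGFB2 within a library, which no scaling can change, was 1.98 ± 0.112 in DMSO and 1.87 ± 0.0707 in THZ531 with overlapping ranges, so a difference between the ligands was not detected. Each ligand overlaps a weak locus on the opposite strand, TMEM91 at TGFB1 (mean 21.3 normalised reads in DMSO and 40.2 in THZ531) and TGFB2-AS1 at TGFB2 (at most 18.2 in any library). Whether the authors' counting used strand is not given in the sources used here.

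Both receptors stood higher as well with the deposited scaling. TGFBR1, the type I receptor kinase that phosphorylates SMAD2 and SMAD3 (chr9:99105089-99154192, plus strand), had 1563, 1658 and 1692 normalised reads in DMSO against 2591, 2622 and 2507 in THZ531. Its groups did not overlap, and its mean rose from 1638 ± 66.6 to 2574 ± 59.4 (SD, n = 3), 1.57-fold (log2 0.65, SE 0.053, adjusted p = 1.7e-08, limma). TGFBR2, the ligand-binding type II receptor kinase (chr3:30606501-30694142, plus strand), had 3502, 3152 and 3421 normalised reads in DMSO and 4724, 4693 and 4477 in THZ531. The values were again separate, but the rise of the mean from 3358 ± 183 to 4632 ± 135 (SD, n = 3) was 1.38-fold (log2 0.46, SE 0.048, adjusted p = 3.4e-07, limma) and did not reach the fold threshold. With the same total the log2 fold change was 0.41 for TGFBR1 and 0.22 for TGFBR2, and with RPL34 it was 0.16 and -0.03, so neither was called under those scalings and the sign of TGFBR2 turned. The ratio of TGFBR2 to TGFBR1 counts within a library was 2.05 ± 0.172 in DMSO and 1.80 ± 0.0209 in THZ531.

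None of the SMADs that carry the signal was called. SMAD2 (chr18:47808957-47930872, minus strand) had 942, 908 and 974 normalised reads in DMSO and 1151, 1136 and 1146 in THZ531. Its groups were separate, yet its log2 fold change of 0.28 (SE 0.064, adjusted p = 0.00099, limma) was well below the fold threshold, and it became 0.04 with the same total and -0.21 with RPL34. SMAD3, which unlike the main form of SMAD2 binds DNA directly (chr15:67065602-67195183, plus strand), had 5034, 4981 and 5154 normalised reads in DMSO and 4530, 4753 and 5156 in THZ531. The highest treated library was level with the highest control and the other two lay below all controls, and the log2 fold change of -0.07 (SE 0.048, adjusted p = 0.19, limma) did not pass the test. Single treated libraries moved this value, to -0.12 (adjusted p = 0.035, limma) without THZ531 replicate 3 and to -0.03 (adjusted p = 0.62) without THZ531 replicate 1. It was -0.32 once scaled to the same total and -0.57 once scaled to RPL34. SMAD4, the common partner that every receptor-regulated SMAD joins (chr18:51030213-51085042, plus strand), had 651, 696 and 665 normalised reads in DMSO and 723, 723 and 704 in THZ531. Although its groups did not overlap, the log2 fold change of 0.10 (SE 0.075, 95% interval -0.05 to 0.24, adjusted p = 0.27, limma) did not pass the test, and scaling to the same total put it at -0.15 and scaling to RPL34 at -0.40. The ratio of SMAD3 to SMAD2 counts within a library, without correction for length, was 5.37 ± 0.0990 in DMSO and 4.21 ± 0.283 in THZ531, and these ratios did not overlap.

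The inhibitory SMADs gave the largest changes among the members. SMAD6, which is best known for restraining BMP receptors and SMAD1 (chr15:66702236-66782849, plus strand), had 3676, 3769 and 3729 normalised reads in DMSO and 1518, 1485 and 1680 in THZ531. The highest treated library lay far below the lowest control. The mean fell from 3725 ± 46.9 to 1561 ± 105 (SD, n = 3), 2.39-fold (log2 -1.26, SE 0.054, adjusted p = 1.3e-11, limma). SMAD7, which occupies TGFBR1 and recruits SMURF ubiquitin ligases to it (chr18:48919853-48950965, minus strand), had 1603, 1711 and 1608 normalised reads in DMSO and 3529, 3650 and 3279 in THZ531. The lowest treated library lay far above the highest control. Its mean rose from 1641 ± 61.1 to 3486 ± 189 (SD, n = 3), 2.12-fold (log2 1.09, SE 0.054, adjusted p = 6.6e-11, limma), which placed it 639th from the top among the 15278 tested loci with a symbol. SMAD6 stood 1592nd from the bottom. Both calls held with every scaling: scaled to the same total and to RPL34, SMAD6 was at -1.50 and -1.75 and SMAD7 at 0.84 and 0.59, the last just above the fold threshold of 1.5.

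SKIL, also called SnoN, a repressor whose protein is degraded on TGF-beta signalling (chr3:170357595-170396849, plus strand), had 1719, 1901 and 1964 normalised reads in DMSO and 1225, 1362 and 1290 in THZ531. The groups were separate and the mean went from 1861 ± 128 to 1292 ± 68.2 (SD, n = 3), which is -0.53 as a log2 fold change (SE 0.065, adjusted p = 2.5e-06, limma). This is 1.44-fold and was not called, but SKIL was called lower with the same total (-0.77) and with RPL34 (-1.02). The 3 inhibitors named in the set therefore did not form 1 direction.

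**Figure D2:**
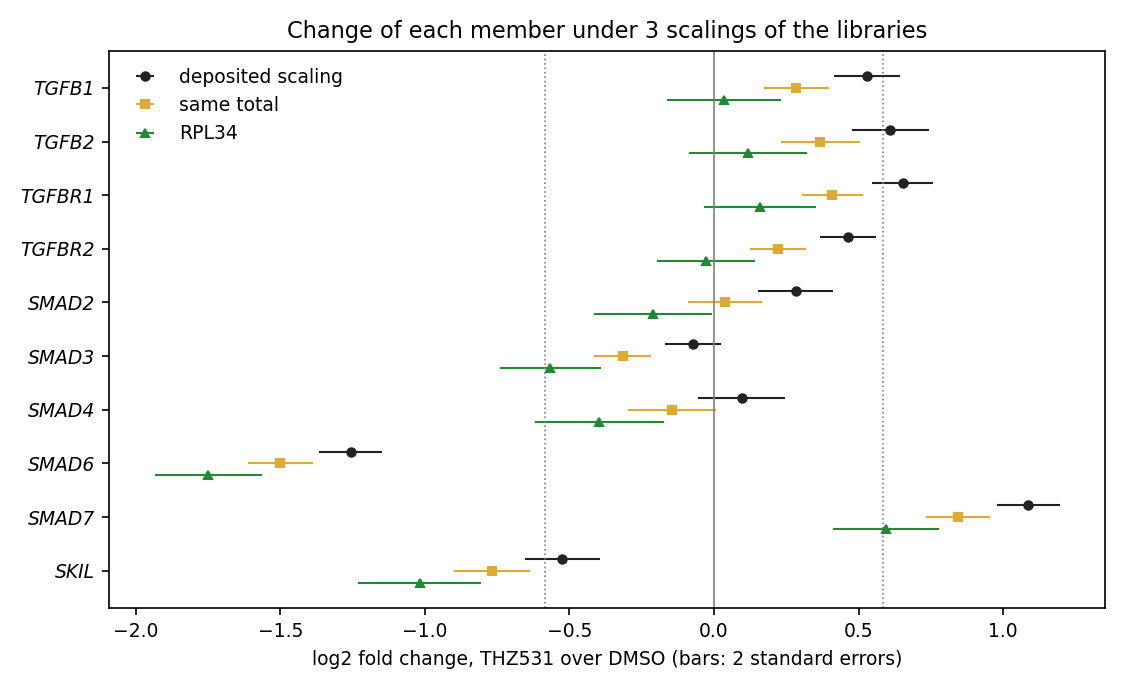
Log2 fold change of each member, THZ531 over DMSO, with the deposited scaling (black circles), the same total (orange squares) and RPL34 (green triangles), bars spanning 2 standard errors on either side and dotted lines at a 1.5-fold change. SMAD6 and SMAD7 stay beyond the dotted lines in all 3 scalings, while the points of TGFBR2, SMAD2 and SMAD4 lie on both sides of 0.

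The opposite changes of the inhibitory SMADs add up in their ratio within a library, which no scaling can alter. The ratio of SMAD7 to SMAD6 counts, without correction for length, was 0.436, 0.454 and 0.431 in the 3 DMSO libraries and 2.33, 2.46 and 1.95 in the THZ531 libraries. The mean ratio went from 0.440 ± 0.0120 to 2.25 ± 0.263 (SD, n = 3), a 5.08-fold change, and the ranges did not overlap. An exact two-sided permutation test of this ratio gave p = 0.10, the smallest value that 3 against 3 libraries allow, and 0.11 after adjustment over 8 ratios of related genes. These pairs were chosen after their values had been seen, so the ratios are a description. Other related pairs of the pathway also changed their proportion: TGIF1 to TGIF2, a pair of SMAD co-repressors, went from 2.07 ± 0.0727 to 10.7 ± 0.872. SMAD5 to SMAD1, a pair of BMP-regulated SMADs, went from 2.96 ± 0.114 to 7.88 ± 0.414. SKI to SKIL went from 2.12 ± 0.0988 to 5.11 ± 0.219, and SMURF1 to SMURF2 from 0.103 ± 0.0048 to 0.218 ± 0.00933.

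**Figure D3:**
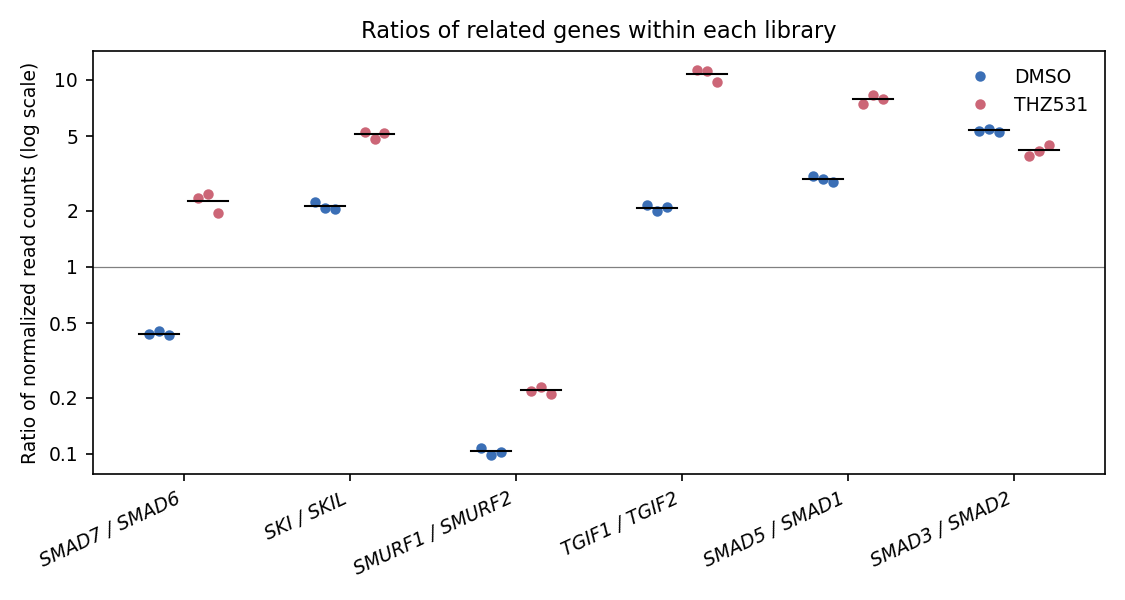
Ratio of the normalised read counts of related genes within each library (log axis), points for the 3 DMSO and 3 THZ531 libraries and bars for means; the ratio is of counts and is not corrected for gene length. SMAD7 over SMAD6 passes from below 1 in all DMSO libraries to above 1 in all THZ531 libraries, and SMAD3 over SMAD2 declines.

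Levels of different genes can be compared only per length. Per kilobase of the main transcript, SMAD6 was the most abundant member in DMSO with 973 ± 12.2 normalised reads, followed by SMAD3 with 782 ± 13.7 and TGFBR2 with 741 ± 40.4, which overlapped each other. In THZ531, SMAD7 with 1043 ± 56.7 normalised reads per kilobase and TGFBR2 with 1022 ± 29.8 came first and overlapped, and SMAD6 was the fifth with 408 ± 27.4. The middle of the DMSO order held TGFB1 with 528 ± 23.1 and SMAD7 with 491 ± 18.3, which overlapped, and then SKIL with 260 ± 17.8 and TGFBR1 with 252 ± 10.3, which overlapped as well. TGFB2, SMAD4 and SMAD2 were the least abundant in DMSO, at 126 ± 1.60, 76.4 ± 2.63 and 27.2 ± 0.950 normalised reads per kilobase. The last place of SMAD2 rests on its length of 34626 bases, against 8772 or less for the other members. Without division by length, its DMSO mean of 941 lay above those of TGFB2 (740) and SMAD4 (671). Its merged exons are similarly long, at 36426 bases. The order depends on the length used. With the length of all annotated exons merged, the 5 highest members in DMSO lay between 416 and 505 per kilobase, with SMAD3 first, SMAD6 the fourth and every neighbour among them overlapping. SMAD7 remained first in THZ531 with 883 ± 48.0.

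Of the members, 7 span 30 to 100 kb in the genome, a class of 4613 expressed genes with a median log2 fold change of -0.01, in which 14.2% were higher and 23.6% lower. Both SMAD6 (80614 bases) and SMAD7 (31113 bases) fall in it. SMAD2 and SMAD3 span more than 100 kb and TGFB1 lies in the class of 10 to 30 kb. The introns of the SMAD7 main transcript held 3 copies of AATAAA, the usual polyadenylation signal, and those of SMAD6 held 28, where the median over 13048 genes was 17. The other members held between 18 and 86. TGFB2, which rose, has the 86 copies, and SKIL, which stood lower, has 28 as SMAD6 does. Whether this count over all introns bears on the directions was not tested. Over all genes the median log2 fold change lay between -0.05 and 0.08 in classes of this count, and the share called lower was 18.9% of genes without a copy and 22.8% to 24.7% in the other classes. Loci without a symbol lay inside TGFBR2 (1) and SMAD3 (4). None of the 5 reached the minimum for testing, whereas 31.1% of the 2290 unnamed loci tested elsewhere were higher and 25.3% lower.

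The genes with the profile closest to that of SMAD7 over the 6 libraries were MCC, HSPA1A and POMK, at Euclidean distances of 0.082, 0.087 and 0.093 on the log2 scale, where the median distance of 11838 genes was 1.84. HSPA1A has a near-identical copy, HSPA1B, so its value is uncertain. Those closest to SMAD6 were CLIP2, DCAF7 and CMIP, at 0.077, 0.081 and 0.082 (median 2.28). Profiles were centred on the DMSO mean, so a short distance mostly reflects a similar fold change. Shared regulation was not tested.

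The wider pathway was read from 6 lists with 117 genes outside the members, of which 95 were tested. There were 32 higher and 12 lower genes, and 51 that were tested and not called, with a median log2 fold change of 0.29. Over all loci 15.7% were higher and 23.9% lower, and the counts of each list are to be read against these shares. With the same total the counts were 17 higher and 20 lower, and with RPL34 12 and 28, next to 9.38% and 32% and to 6.14% and 42.8% of all loci. In raw counts the balance of higher over lower genes thus turned with the scaling. The shares of all loci moved towards lower as well. The list genes named in the following for being called higher or lower kept their direction with both scalings.

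Among the other receptors and co-receptors, 6 of 12 tested genes were higher and 1 was lower (median 0.47). BAMBI, a decoy receptor without a kinase domain that inhibits TGF-beta signalling, had 256, 322 and 259 normalised reads in DMSO and 946, 798 and 919 in THZ531, a log2 fold change of 1.67 (SE 0.109, adjusted p = 1.4e-09, limma). TGFBR3, the co-receptor that presents TGFB2, rose by 1.36 (333 ± 63.8 to 846 ± 55.6) and ACVR1B, an activin receptor that also acts on SMAD2 and SMAD3, by 1.21 (1026 ± 44.6 to 2370 ± 77.5). These 3 rises were called with all scalings. BMPR2, the type II receptor for BMPs, fell by 0.91 on the log2 scale, from 4038 ± 128 to 2154 ± 149.

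Among the other SMADs and nuclear partners, 5 of 12 were higher and 3 were lower (median 0.49). The coactivator CREBBP (log2 fold change 0.83), SMAD5 (0.78) and the repressor SKI (0.75) were higher, though SMAD5 and SKI were not called with the same total and none of them with RPL34. TGIF2 fell from 2036 ± 55.7 to 578 ± 25.7, a log2 fold change of -1.82 (SE 0.065, adjusted p = 1.8e-12, limma), and SMAD1 had a log2 fold change of -0.63 and lost its call without THZ531 replicate 2 (-0.58).

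The genes of SMAD and receptor turnover split evenly, with 4 of 14 higher and 4 lower (median -0.06). The ubiquitin ligase SMURF1, a partner of SMAD7, rose from 1932 ± 118 to 4223 ± 94.9 (log2 1.13), and the deubiquitinase USP4 rose by 1.02 and the phosphatase PPM1A by 0.78, though PPM1A was not called with the same total and neither was called with RPL34. The falls were deeper. PMEPA1, a TGF-beta target gene whose protein binds SMAD2 and SMAD3 and limits signalling, had 7938, 8615 and 8776 normalised reads in DMSO and 1180, 1153 and 1337 in THZ531. No library of either group came near the other. This is a 6.91-fold fall (log2 -2.79, SE 0.059, adjusted p = 9.8e-15, limma), 164th from the bottom of the 15278 loci with a symbol. LDLRAD4, its relative with the same function, fell by 2.06 on the log2 scale (214 ± 16.3 to 50.5 ± 3.59), and RNF111, a ligase that degrades SMAD7 and SKIL proteins, fell by 1.27 (2071 ± 170 to 854 ± 48.1).

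Of 23 tested target genes, 9 were higher (median 0.43), next to 15.7% of all loci. At an adjusted p of 0.05 without the fold threshold, 15 were higher and 2 lower by limma (all loci: 34.6% and 34.1%), the latter being LIF (10733 ± 709 to 8187 ± 321) and CDKN2B (3407 ± 209 to 3076 ± 126), named here after their values had been seen and not recomputed with other scalings. CCN2 had 2286, 2110 and 2280 normalised reads in DMSO and 6755, 6451 and 6647 in THZ531, a log2 fold change of 1.57 (SE 0.046, adjusted p = 2.3e-13, limma). SNAI1, a transcription factor of the epithelial to mesenchymal transition, rose by 1.43 (284 ± 6.10 to 770 ± 46.0) and ID2, an inhibitor of differentiation, by 1.19 (2320 ± 11.3 to 5286 ± 234). These 3 genes were called with all scalings. Other pathways also act on these targets, and the list holds no expected direction for any of them.

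Among the other ligands, 14 of 30 were too weak to test, 6 were higher and 2 lower (median -0.23). INHBB, which encodes an activin subunit and was the most abundant of those named, rose from 6858 ± 215 to 11823 ± 71.9 (log2 0.79), AMH had a log2 fold change of 0.80 and GDF15 of 0.71, and none of these 3 was called with the same total or RPL34. GDF11 stood at -0.60 (802 ± 28.8 to 530 ± 31.1) and lost its call without DMSO replicate 3 (-0.57) or without THZ531 replicate 1 (-0.56). Of the 18 tested genes of latency and extracellular antagonists, 2 were higher and 2 lower (median 0.29). NOG, which binds BMPs, and FST, which binds activins, had log2 fold changes of 0.78 and 0.75 and were not called with the other scalings. ITGB8, an integrin subunit that activates latent TGF-beta, fell by 0.85 on the log2 scale (3189 ± 126 to 1765 ± 62.9), and LTBP4, a latency protein, by 0.67.

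**Figure D4:**
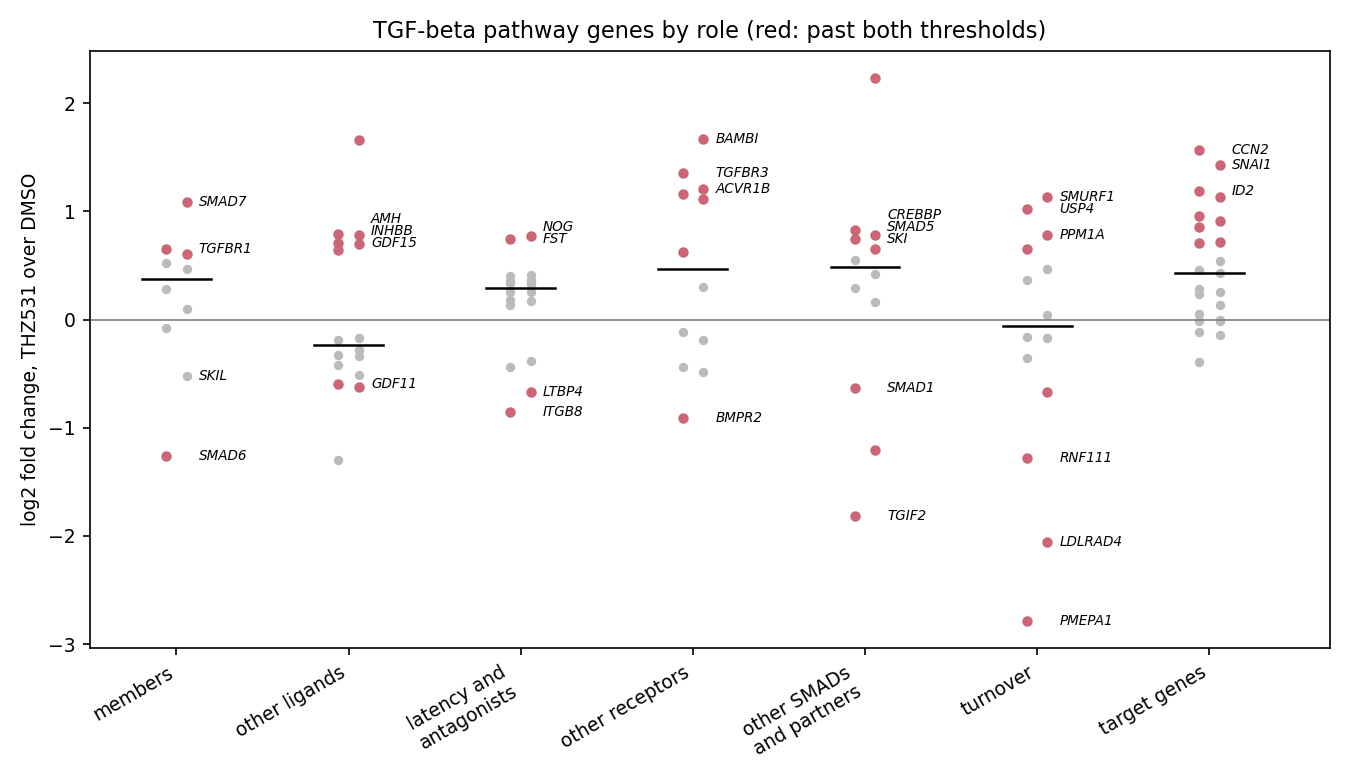
Log2 fold change, THZ531 over DMSO, of the members and of the tested genes of 6 pathway lists, with red points for called genes, grey points for the others and black bars for the median of each list. The receptors and target genes have medians of 0.47 and 0.43, and PMEPA1 at -2.79 and LDLRAD4 at -2.06 are the lowest points among the turnover genes.

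Markers of OVCAR3 and of other cell types were read for the same libraries. All 8 epithelial and ovarian markers were tested, with a summed level of 435984 to 446692 normalised reads in DMSO and 555188 to 567568 in THZ531, most of it keratins. The only 1 of the 8 that was called was PAX8, the lineage factor of serous ovarian cancer, which fell by 3.18 on the log2 scale (11272 ± 545 to 1241 ± 121). The log2 fold change was 0.58 for KRT8, 0.43 for KRT18, 0.08 for KRT7, 0.38 for CDH1, 0.30 for EPCAM, -0.17 for WT1 and -0.46 for MUC16. Of 7 fibroblast markers 4 were tested, and their summed level was 1735 to 2067 in DMSO and 3274 to 3676 in THZ531, most of it COL1A1 and COL3A1, while DCN and LUM had at most 3.19 normalised reads in any library. COL1A1 also stands on the target list. The sum of 4 endothelial markers was 231 to 286 and 308 to 420, and that of 5 immune markers was 411 to 503 and 408 to 490, with CD3E at 0 in all libraries. The part of these levels in the pathway results was not tested.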

How the data were processed

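Members, lists and tests were chosen with earlier results of these data known. RNA from 3 DMSO and 3 THZ531 cultures of OVCAR3 was made into stranded polyA plus libraries. The authors mapped reads to hg38 with STAR (2.7.5a in the submitters' processing notes, while the study's methods name another version), counted them on FAST DB genes with featureCounts and normalised the counts with DESeq2. The deposited values are thus a signal that is never negative, that is, counts over the size factor of their library, and not corrected for length. Whole multiples of 1 step made up 100% of every library's values (tolerance 0.01), so reads were recovered for the count tests.

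Tests used log2(value + 1) and limma 3.58.1 (trend) in R 4.3.3, without covariates. This scale understates the change of weak genes. The tests were checked on simulated data. Alternatives were pseudocounts of 0.1 and 10, no minimum and a minimum of 50, the same total, RPL34, an adjusted p, a fold of 2, edgeR 4.0.16 and DESeq2 1.42.0 on recovered reads, a replicate block and leaving out each library. All libraries of a group differed beyond counting noise (chi-square per degree of freedom 4.48 to 23.8). Named list genes are, per list and direction, the 3 with the largest change among those called, whose mean reaches 100 and whose groups stand apart. Gene positions and spans are those given with the expression values (hg38). Strands, exon lengths and main transcripts are from GENCODE v44, which matched 24875 of 26793 symbols (92.8%). Promoter sequences are from RefSeq (GRCh38.p14), matched for 10 of 10 members, and equal to hg38. The main transcript is the MANE transcript.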

Additional observations from a re-analysis of the deposited data

How the results depend on the processing

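SMAD6 and SMAD7 kept their direction and their call under every alternative run. Members called higher were 3 with the deposited scaling and 1 with a fold change of 2, 1 with the same total and 1 for RPL34, and members called lower were 1 with the deposited scaling and 2 with both the same total and RPL34. Pathway genes called higher were 32, against 13 with a fold change of 2, 17 with the same total and 12 for RPL34, and those called lower were 12, against 5, 20 and 28. Unnamed loci inside members called higher were 0 by limma, none being tested, and 2 with no minimum. Some signs turned: SMAD4 was at -0.15 with the same total and -0.40 with RPL34, SMAD2 at -0.21 with RPL34 and TGFBR2 at -0.028 with RPL34. The change of scaling by construction shifts every gene by a similar amount. With 1 library left out in turn, members called higher ranged from 3 to 3 and lower from 1 to 1, pathway genes higher from 32 to 33 and lower from 11 to 12, and unnamed loci from 0 to 0. Replicate numbers did not mark a shared origin (same-number correlations of deviations 0.0017, 0.019 and -0.039), and the replicate block gave 3, 1, 32, 13 and 0 for these counts and changed no call of a named gene. edgeR and DESeq2 changed none of the 5 counts by more than 1.5 times. In all, 12 of 85 counts under the alternatives moved by more than 1.5 times. The counts of unnamed loci inside members could move only with no minimum, as none was tested otherwise. Of 612 single-gene values, 565 kept direction and call, 41 lost the call, 2 gained it and 4 turned. The adjusted p and the fold of 2 reuse the main fit, so they could change a call but not a direction. Loci under the minimum of 10 normalised reads were left out by choice, and they rest on few reads.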
